A study of Mus musculus with 6 samples.

Results

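Decorin (*Dcn*), biglycan (*Bgn*), lumican (*Lum*), fibromodulin (*Fmod*), periostin (*Postn*), thrombospondin-1 and thrombospondin-2 (*Thbs1*, *Thbs2*), osteonectin (*Sparc*), tenascin-C (*Tnc*) and fibronectin (*Fn1*) encode secreted proteins that sit on, or link cells to, the collagen matrix. These 10 genes, of 46078 listed, are defined by name, as members of the small leucine-rich and matricellular families, with no threshold on a measured value. All 10 had counts. One of them, *Lum*, had too few to be tested, which left 9 for the comparison of genotypes. *Thbs1* rose about 5.97-fold in cells labelled *Hnrnpa2b1* KO and *Postn* fell about 5.95-fold. In counts *Thbs1* passed with any single library left out, while the call of *Postn* was lost without KO3, WT1, WT2 or WT3. The other 7 tested genes did not pass the threshold.

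Small leucine-rich proteoglycans are short, horseshoe-shaped proteins, most of them carrying glycosaminoglycan chains, that bind collagen fibrils and set their spacing and width. Several of them also bind growth factors of the TGF-beta family. Matricellular proteins are secreted into the same matrix but act mainly as signals that change how cells attach, migrate and respond to growth factors, and in muscle they are made in abundance by fibroblasts and, in culture, also by myoblasts.

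The RNA came from C2C12 cells, an immortalized mouse myoblast line that fuses into myotubes when serum is withdrawn, collected after 48 hr of differentiation in medium with insulin, transferrin and selenium. One group of 3 libraries was from *Hnrnpa2b1* KO cells, made with CRISPR/Cas9 and puromycin selection, and the other 3 were from WT cells (KO1 to KO3 and WT1 to WT3). In a Western blot of the knockout, the paper names cells given a scrambled guide RNA as the other group. Whether the WT libraries came from such cells was not stated. The methods describe 3 independent clones per genotype grown from colonies, but which clone gave each library was not given in the sources used here, so that the p-values measure the spread between these 3 and 3 libraries, which all derive from a single line.

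The libraries held 33605258 to 40558740 counted reads. *Hnrnpa2b1*, an RNA-binding protein of the hnRNP family, had 159 to 249 CPM in KO and 225 to 252 CPM in WT (CPM, counts relative to the library total after TMM scaling), with a log2 fold change of −0.23 (standard error 0.18, edgeR adjusted p = 0.381). Reads summed over the whole gene do not test a small deletion, so this value neither supports nor contradicts the genotype labels. Muscle markers were abundant in all 6 libraries. Summed over the 11 genes measured, they were at 12020 to 26416 CPM in KO and 19151 to 23642 CPM in WT. Of these genes, 2 rose (*Myod1* and *Cdh15*) and 1 fell (*Myf5*), beside 12.1% and 10.6% of all tested genes. These calls of muscle markers were lost without WT1 or without WT3, while 2 rose and 6 fell without KO1 (median log2 fold change −0.78, beside −0.34 with all libraries), and 2 rose and 3 fell in DESeq2. Of 12 fibroblast markers, 9 were tested and 7 rose, beside 12.1% of all tested genes, with a median log2 fold change of 2.32. Those that rose were *Dpt* (5.88), *Osr1* (5.81), *Ly6a* (2.76), *Pi16* (2.45), *Pdgfrb* (2.32), *Cd34* (1.74) and *Pdgfra* (1.17). *Col3a1* (0.65, edgeR adjusted p = 0.132) and *Col15a1* (−0.70, adjusted p = 0.639) did not pass. Of the fibroblast markers, only 2 passed without WT1 and 3 without WT3. Their summed level was 5433 to 9485 CPM in KO and 3579 to 4720 CPM in WT, most of it *Col3a1*, while *Tcf21* had 0 counts in every library and *Dpp4* had at most 12. *Clec3b* had 0, 52 and 8 counts in KO1 to KO3 and 0 in each WT library, too few to be tested. Summed tenocyte markers, nearly all of it *Scx* and *Fmod*, were at 120 to 129 CPM in KO and 49.3 to 50.7 CPM in WT, immune markers at 6.32 to 8.11 and 3.32 to 4.19 CPM, endothelial markers at 0.196 to 0.756 and 1.19 to 2.05 CPM, and Schwann cell markers at 1.05 to 1.42 and 0.839 to 1.27 CPM. Part of the difference in a bulk library can be fewer cells of a type or less RNA per cell, which cannot be told apart here, and the part these markers had in the results below was not tested.

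Levels of different genes were compared in TPM, which relate the abundance of transcripts to library size and correct for their length. *Sparc*, a collagen-binding glycoprotein, was the most abundant of the 10 in both genotypes, with a median of 1461 TPM in WT (1249 to 1704) and 1809 TPM in KO (1204 to 1845). In WT, *Bgn* (median 215 TPM) and *Fn1* (136 TPM) followed with overlapping ranges, then *Thbs1* (46.2 TPM) and *Tnc* (41.4 TPM), also overlapping, then *Postn* (19.5 TPM). *Thbs2* (4.31 TPM) and *Dcn* (4.30 TPM) overlapped, and *Fmod* (0.635 TPM) and *Lum* (0.0335 TPM) were lowest. In KO, *Thbs1* (median 256 TPM) stood beside *Fn1* (361 TPM) and *Bgn* (244 TPM) with overlapping ranges and was separated from *Tnc* (27.9 TPM). *Postn* (5.76 TPM) overlapped *Thbs2* (4.70 TPM) in KO, where in WT its lowest library was above the highest of *Thbs2*. The 10 genes together took 1.43%, 0.959% and 1.82% of all counts in KO1 to KO3, against 0.738%, 1.04% and 0.710% in WT1 to WT3. KO2 was below WT2 in this share, and the genotypes therefore overlapped.

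**Figure D1:**
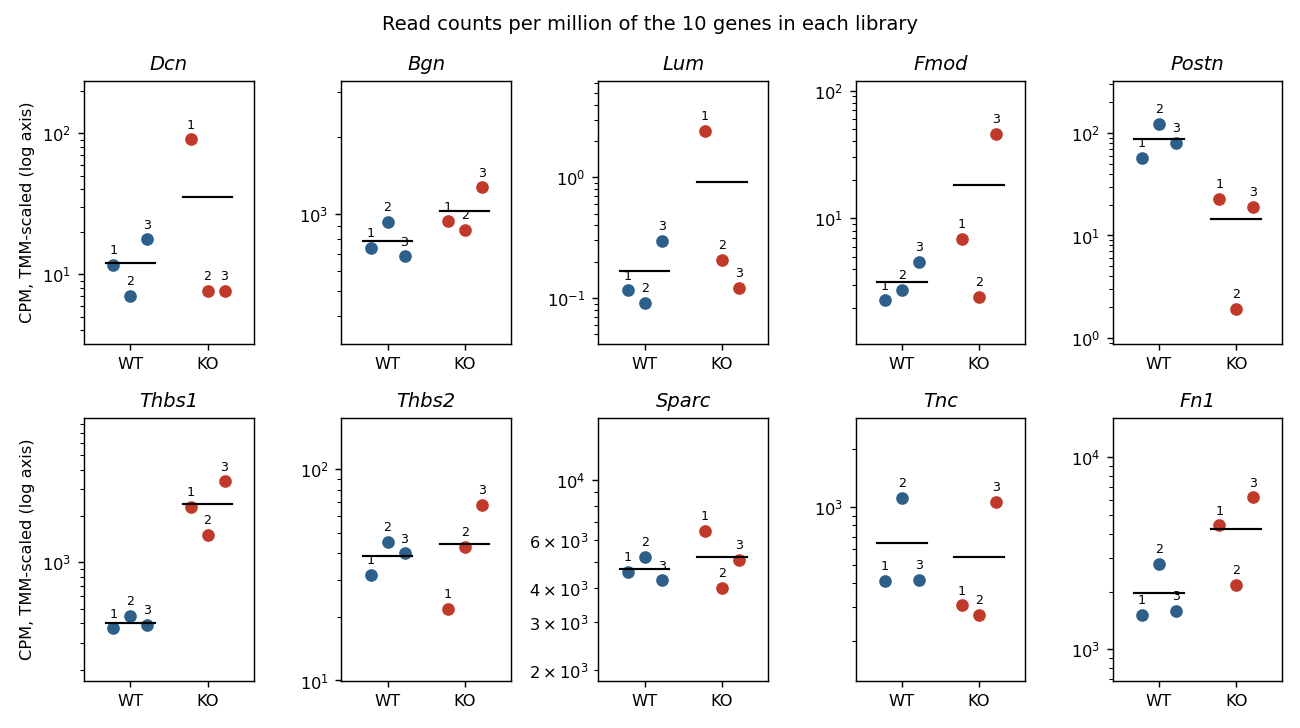
CPM (TMM-scaled, log axis) of the 10 genes in each library, WT in blue and KO in red, with the replicate number above each point and the mean of 3 libraries as a black line. KO and WT points are apart for *Thbs1* and *Postn* and overlap for the other 8 genes, and *Dcn* and *Lum* are high in KO1 alone.

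Of the 9 tested genes, 2 passed the threshold of an adjusted p under 0.05 (edgeR's quasi-likelihood test), beside 22.7% of all 14828 genes tested. One was higher, where 12.1% of all tested genes were higher, and 1 was lower, where 10.6% were lower. The split over all genes moved with the scaling, from 1796 higher and 1565 lower to 2295 higher and 1174 lower with library totals alone, and it was 1004 higher and 1390 lower in TPM. At an unadjusted p under 0.05 there were 4 (*Thbs1*, *Postn*, *Fmod* and *Fn1*), beside 39.0% of all genes tested. The log2 fold changes had a median of 0.38, beside 0.03 over all tested genes, and were positive for 7 and negative for 2. The ranges of the genotypes were apart for 2 of the 9, beside 44.3% of all tested genes. In TPM, 8 of the 10 were tested (*Lum* and *Fmod* were too low) and *Thbs1* and *Postn* passed, beside 20.5% of all genes tested. The number past the threshold in counts was 1 without KO3, WT1, WT2 or WT3, 3 without KO1 and 4 without KO2. Over all genes the calls were 2088 of 14989 without KO3, 933 of 15521 without WT1, 2100 of 15408 without WT2 and 1288 of 15272 without WT3. They were 4712 of 15409 without KO1 and 2695 of 15202 without KO2, beside 3361 of 14828 with all libraries.

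**Figure D2:**
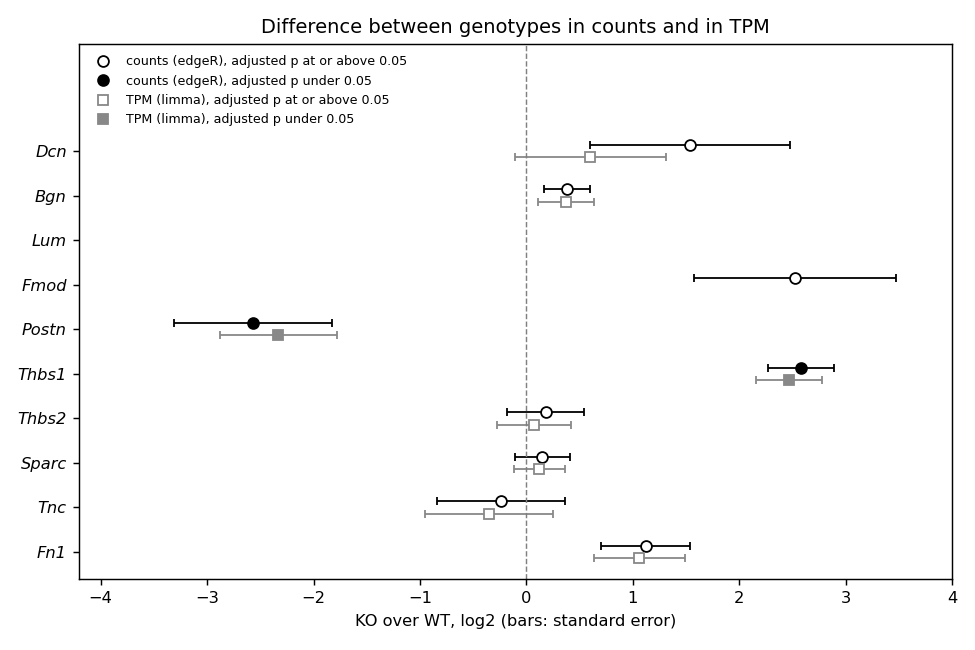
Log2 difference of KO over WT for each gene, from counts (edgeR, circles) and from log2(TPM + 1) (limma, squares), with bars of 1 standard error and filled symbols for an adjusted p under 0.05. *Thbs1* (2.58 in counts) and *Postn* (−2.57) have the only filled symbols, and *Lum* has none because it was not tested.

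*Thbs1* encodes a large trimeric glycoprotein that binds CD47, CD36, integrins and syndecans and can release TGF-beta from its latent complex. The gene (ENSMUSG00000040152) lies on the + strand of chromosome 2, from 118111876 to 118127133 on GRCm38. Its level was 2314, 1518 and 3380 CPM in KO1 to KO3, against 371, 446 and 390 CPM in WT1 to WT3. Every KO library was above every WT library, and the lowest KO library, KO2, was still well above the highest WT library, WT2. The means were 2404 ± 935 CPM in KO and 402 ± 39.1 CPM in WT (SD, n = 3 each). KO over WT was 2.58 on the log2 scale (standard error 0.31, edgeR adjusted p = 0.00262). In TPM the levels were 256, 177 and 466 in KO and 46.2, 56.8 and 44.6 in WT, a log2 difference of 2.47 (standard error 0.31, limma adjusted p = 0.00183). Leaving out any 1 library kept the log2 fold change in counts between 2.25 and 2.83, with edgeR adjusted p between 0.000943 and 0.0228. The 104 tested genes within 5 Mb of *Thbs1* had a median log2 fold change of 0.05. An exact two-sided permutation test of 3 libraries against 3 gave 0.1, the smallest p that this design allows, for *Thbs1* and for *Postn*.

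*Thbs2* encodes a trimeric thrombospondin close in structure to the product of *Thbs1*, but without the sequence that releases latent TGF-beta. It lies on chromosome 17 (14665500 to 14694262, − strand). Levels were 21.9, 42.9 and 67.6 CPM in KO1 to KO3, against 31.7, 45.4 and 40.0 CPM in WT1 to WT3. KO1 was the lowest and KO3 the highest of the 6 libraries, and the WT libraries lay between them. KO over WT was 0.18 on the log2 scale (standard error 0.36, edgeR adjusted p = 0.744), and it was −0.26 without KO3. The ratio of *Thbs1* to *Thbs2* in TPM was 111, 37.6 and 52.2 in KO1 to KO3, against 12.5, 10.4 and 10.3 in WT1 to WT3, so that the ratio was higher in all KO libraries than in any WT library.

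*Postn* encodes periostin, a fasciclin-domain protein that binds integrins, collagen and tenascin-C and helps to cross-link collagen. It lies on the + strand of chromosome 3, from 54361109 to 54391037 (ENSMUSG00000027750). Because it was the gene of the 10 that fell, and RefSeq (GRCm38.p6) has an entry for its start in the promoter table used, the 250 bases upstream of that start (chr3:54360857-54361106, + strand, 5′ to 3′) are shown, with the match to a TATA box (TATAAA) in capitals:

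Postn: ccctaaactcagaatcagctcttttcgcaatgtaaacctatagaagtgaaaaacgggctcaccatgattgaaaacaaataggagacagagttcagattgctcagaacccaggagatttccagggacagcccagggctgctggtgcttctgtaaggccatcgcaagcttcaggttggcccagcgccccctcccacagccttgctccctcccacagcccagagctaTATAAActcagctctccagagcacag

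The TATAAA match began 26 bases upstream of the start, and 12.4% of 32851 promoters in the table held this motif on either strand of the same window. A GC box (GGGCGG, in 32.7% of promoters), an AP-1 site (TGANTCA, 6.75%), an E-box (CANNTG, 66.2%) and a SMAD box (CAGACA, 17.1%) were searched for in the same way on both strands and these letters were not in the *Postn* window. A second *Postn* start in the table, further upstream, held none of the 5 motifs. The promoter table used has no entry for *Thbs1*, *Fn1*, *Dcn* or *Lum*.

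*Postn* had 816, 84 and 778 counts in KO1 to KO3, against 1986, 4042 and 2947 counts in WT1 to WT3, which came to 1.92 to 22.8 CPM in KO and 57.4 to 123 CPM in WT. All KO libraries were below all WT libraries, and KO2 was far below the other KO libraries. The means were 14.6 ± 11.1 CPM in KO and 86.7 ± 33.5 CPM in WT (SD, n = 3 each), and the log2 fold change was −2.57 (standard error 0.74, edgeR adjusted p = 0.0425). In TPM the levels were 5.76, 0.477 and 6.22 in KO and 14.2, 28.6 and 19.5 in WT, with a log2 difference of −2.33 (standard error 0.55, limma adjusted p = 0.0204). This call depended on which libraries were included. *Postn* passed in counts without KO1 (log2 fold change −3.06, edgeR adjusted p = 0.0217) and without KO2 (−2.05, adjusted p = 0.0103). It did not pass when another library was left out, where the adjusted p was 0.0906 without KO3 (log2 fold change −2.81), 0.0898 without WT1 (−2.81), 0.103 without WT2 (−2.24) and 0.0977 without WT3 (−2.66). In TPM it passed without any 1 of the KO libraries (limma adjusted p between 0.00729 and 0.0232), but the adjusted p was 0.0659 without WT1 (−2.56), 0.0546 without WT2 (−2.08) and 0.0687 without WT3 (−2.35). The direction was the same in each. The 56 tested genes within 5 Mb had a median log2 fold change of 0.03. The TPM ratio of *Thbs1* to *Postn* was 44.4, 370 and 74.8 in KO1 to KO3, against 3.25, 1.98 and 2.29 in WT1 to WT3. That it was higher in every KO library follows from the separate ranges of both genes and is no further result.

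*Fn1* encodes fibronectin, the glycoprotein that cells assemble into fibrils through integrins and on which other matrix proteins are laid down. It lies on chromosome 1 from 71585520 to 71653200 on the − strand. Its level was 4425, 2174 and 6190 CPM in KO1 to KO3, against 1508, 2796 and 1590 CPM in WT1 to WT3. KO1 and KO3 were above all WT libraries, whereas KO2 was below WT2. This gave a log2 fold change of 1.12 (standard error 0.42, edgeR adjusted p = 0.0908), which did not pass. Without KO2 it was 1.44 with an adjusted p of 0.0310 (edgeR), and DESeq2 on all libraries gave 1.09 with an adjusted p of 0.0130. In TPM the log2 difference was 1.06 (standard error 0.43, limma adjusted p = 0.111), and 1.51 without KO2 (adjusted p = 0.0257).

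*Tnc* encodes tenascin-C, a six-armed protein of developing and injured tissue that weakens attachment to fibronectin. It lies on chromosome 4 (63959785 to 64047015, − strand). Levels were 307, 274 and 1061 CPM in KO1 to KO3, against 411, 1115 and 416 CPM in WT1 to WT3. One library in each genotype, KO3 and WT2, was far above the other two, and the ranges overlapped almost entirely. The log2 fold change of −0.24 (standard error 0.60, edgeR adjusted p = 0.790) had no stable sign, since it was 0.40 without WT2, 0.09 without KO2, 0.04 without KO1 and −1.15 without KO3. The TPM ratio of *Fn1* to *Tnc* was 13.0, 7.17 and 5.32 in KO and 3.29, 2.26 and 3.43 in WT, higher in every KO library, although neither gene passed the test alone. The TPM ratio of *Bgn* to *Dcn* overlapped between the genotypes, with 8.12, 89.6 and 131 in KO and 50.1, 107 and 30.6 in WT. Ratios were taken as a description for 5 pairs and were not tested, and the fifth, *Sparc* over *Postn*, was 291 to 2522 in KO and 59.5 to 103 in WT.

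*Sparc* differed little between genotypes, with 6483, 4020 and 5081 CPM in KO1 to KO3, against 4586, 5206 and 4269 CPM in WT1 to WT3 (chromosome 11, 55394500 to 55420080, − strand). KO1 was the highest library and KO2 the lowest, and the WT libraries lay between. This gave a log2 fold change of 0.15 (standard error 0.26, edgeR adjusted p = 0.708), and −0.05 without KO1. The 120 tested genes within 5 Mb of *Sparc* had a median log2 fold change of −0.24.

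None of the small leucine-rich genes *Bgn*, *Dcn* and *Fmod* passed, and *Lum* was not tested. *Bgn*, a proteoglycan with a pair of glycosaminoglycan chains in its usual form, lies on chromosome X (73483602 to 73495933, + strand) and had 936, 864 and 1271 CPM in KO1 to KO3, against 737, 934 and 683 CPM in WT1 to WT3. KO2 was below WT2, and KO3 was highest. On the log2 scale KO over WT was 0.38 (standard error 0.22, edgeR adjusted p = 0.227) and stayed between 0.20 and 0.52 with each library left out.

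*Dcn* encodes decorin, which carries a single chain, binds collagen and sequesters TGF-beta. It lies on chromosome 10 from 97479500 to 97518162 (+ strand). Its level was 90.6, 7.58 and 7.62 CPM in KO1 to KO3, against 11.6, 7.01 and 17.7 CPM in WT1 to WT3. Only KO1 was above the WT libraries, with 3239 counts beside 331 in KO2 and 312 in KO3, and the other KO libraries lay inside the WT range. The log2 fold change of 1.54 (standard error 0.94, edgeR adjusted p = 0.259) changed sign to −0.68 without KO1. The TPM difference likewise went from 0.60 to −0.40 without KO1.

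*Lum* encodes lumican, a keratan sulfate proteoglycan of collagen fibrils, and starts 47338 bases beyond the end of *Dcn* on the same strand (chromosome 10, 97565501 to 97572703). It had 86, 9 and 5 counts in KO1 to KO3, against 4, 3 and 11 in WT1 to WT3, too few for the filter. KO1 was again the one library that stood apart, and the others were near or at the limit of detection. Among the 9 tested genes within 2 Mb of the pair, the level in KO1 was at most 1.27 times that in the higher of KO2 and KO3 (*Atp2b1*). This set was chosen after the values were seen.

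*Fmod* encodes fibromodulin, a keratan sulfate proteoglycan that binds collagen and recruits lysyl oxidase to it. It lies on chromosome 1 from 134037254 to 134048277 (+ strand). Levels were 6.91, 2.43 and 45.7 CPM in KO1 to KO3, against 2.28, 2.77 and 4.55 CPM in WT1 to WT3. KO3 was far above the rest, KO1 above WT3, and KO2 inside the WT range. The log2 fold change was 2.52 (standard error 0.95, edgeR adjusted p = 0.0918). It was 0.54 without KO3 (adjusted p = 0.499), whereas *Fmod* passed without KO1 (2.89, adjusted p = 0.0409) and without KO2 (3.05, adjusted p = 0.0301).

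**Figure D3:**
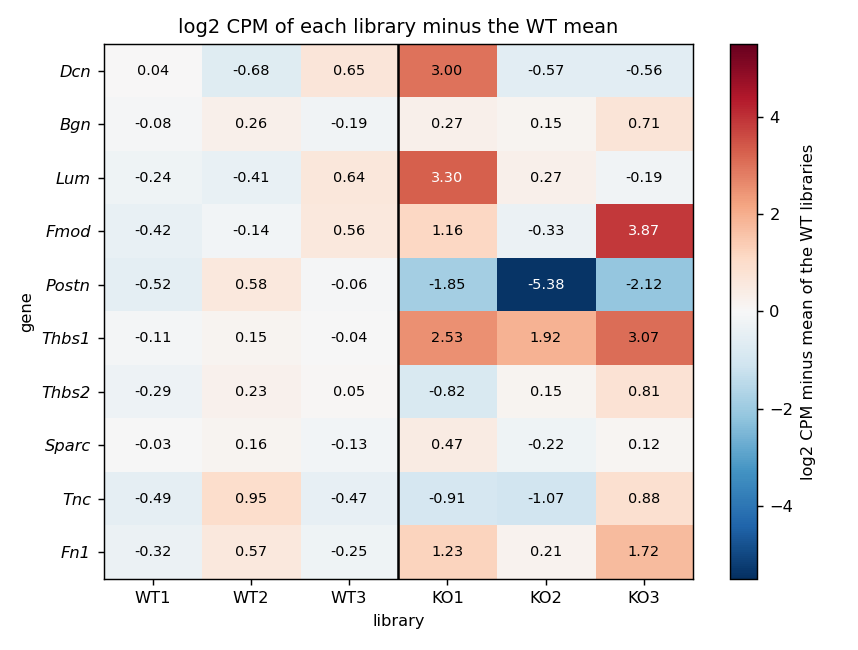
Log2 CPM of each library minus the mean of the 3 WT libraries, with genes in rows and libraries in columns. *Thbs1* is positive in all KO libraries (2.53, 1.92 and 3.07) and *Postn* negative in all (−1.85, −5.38 and −2.12), while *Dcn* and *Lum* are far above 0 in KO1 alone and *Fmod* most of all in KO3.

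The KO libraries did not move together across these genes. KO3 was the highest KO library for 6 of the 10 (*Bgn*, *Fmod*, *Thbs1*, *Thbs2*, *Tnc* and *Fn1*), beside 30.9% of all tested genes. KO1 was highest for the other 4, beside 35.1%, and KO2 for 0, beside 34.0% of all tested genes. KO2 was the lowest KO library for 8 of the 10, beside 30.9% of all tested genes. Among the WT libraries, WT2 was highest for 7, beside 36.9% of all tested genes. The SD of log2 CPM was larger in KO than in WT for 9 of the 9 tested genes, beside 68.9% of all tested genes. Its median was 0.82 in KO and 0.49 in WT, beside 0.28 and 0.19 over all tested genes. The SD within KO lay at the 99.5th percentile of all tested genes for *Fmod*, the 99.4th for *Dcn*, the 99.3rd for *Postn* and the 94.9th for *Tnc*, but at the 52.0th for *Bgn* and the 59.8th for *Sparc*. From the lowest to the highest KO library the level differed 18.8-fold for *Fmod*, 12.0-fold for *Dcn* and 11.9-fold for *Postn*, and 2.23-fold for *Thbs1*.

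The tested genes whose profile over the 6 libraries was nearest to that of *Thbs1*, by Euclidean distance between centred log2 CPM, were *Adgrg1* (distance 0.44), *Tiam1*, an activator of Rac (0.61) and *Brinp3* (0.66). *Adgrg1* encodes an adhesion receptor coupled to G proteins, and had 89.8, 42.8 and 89.9 CPM in KO and 10.8, 13.6 and 13.2 CPM in WT. The nearest to *Postn* were *Actg2*, a smooth muscle actin (1.04), *Piezo2*, a mechanically gated channel (1.21), and *Samd9l* (1.21). *Actg2* had 8.65, 1.58 and 11.0 CPM in KO and 28.4, 45.1 and 29.8 CPM in WT, so that KO2 was again the lowest library. The nearest to *Fmod* were *Cemip*, which takes part in hyaluronan breakdown (1.59), *Igfn1* (1.75) and *Has2*, a hyaluronan synthase (1.99), all highest in KO3. The distances for *Fmod* were larger than those for *Thbs1*.

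Other small leucine-rich genes were also measured. Of 13 in the list, 8 were tested and 3 passed, all of them higher, beside 12.1% of all tested genes. The median log2 fold change was 0.53, beside 0.03 over all tested genes. *Omd*, osteomodulin, rose by 2.97 on the log2 scale (standard error 0.47, edgeR adjusted p = 0.00617), from 2.31, 1.74 and 3.93 CPM in WT to 9.32, 26.7 and 26.6 CPM in KO. *Prelp*, which anchors basement membranes to collagen, had 29.5, 16.3 and 45.6 CPM in KO and 5.64, 7.07 and 7.92 CPM in WT (log2 fold change 2.14, standard error 0.36, adjusted p = 0.00717). *Podnl1* had 59.4, 52.6 and 61.7 CPM in KO and 26.3, 23.5 and 27.0 CPM in WT (1.18, standard error 0.13, adjusted p = 0.00195). All 3 had no overlap between the genotypes, as had 44.3% of all tested genes, and passed with every library left out. *Ogn*, osteoglycin, chosen after its values were seen as the most abundant of the list, had 1077 to 1681 CPM in KO and 1288 to 1539 CPM in WT (log2 fold change −0.03, adjusted p = 0.943).

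Of the other matricellular genes, 21 were in the file under their current or older symbols and 14 were tested. Of these, 6 rose and 2 fell, beside 12.1% and 10.6% of all tested genes, with a median of 0.95. *Wisp2*, the CCN family member also called *Ccn5*, had 25.1, 41.9 and 51.0 CPM in KO and 6.57, 4.85 and 6.76 CPM in WT (log2 fold change 2.70, standard error 0.28, edgeR adjusted p = 0.00181), and passed with every library left out. *Sparcl1*, the closest relative of *Sparc*, fell, with 0.364, 3.94 and 1.71 CPM in KO and 9.75, 8.84 and 12.6 CPM in WT (−2.37, standard error 0.66, adjusted p = 0.0388), but its adjusted p was 0.110 without KO3, 0.107 without WT1, 0.0716 without WT2 and 0.111 without WT3. *Tnn*, tenascin-W, and *Tgfbi*, a relative of periostin, passed at very low levels. *Tnn* had 44, 12 and 39 counts in KO and 0, 4 and 6 in WT, and its adjusted p was 0.0576 without KO1, 0.0950 without KO3, 0.107 without WT1, 0.0965 without WT2 and 0.0941 without WT3. *Tgfbi* had 42, 29 and 33 counts in KO and 6, 8 and 1 in WT, and its adjusted p was 0.0538 without KO3, 0.0971 without WT1 and 0.0652 without WT3. The number of these genes past the threshold fell from 8 to 1 without WT1 or WT3 and to 3 without KO3 or WT2. Over all genes the calls fell from 3361 to 933 without WT1 and to 1288 without WT3.

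Of 20 genes that build and sulfate glycosaminoglycan chains, 18 were tested, with a median of 0.23. Among them 5 rose and 1 fell, beside 12.1% and 10.6% of all tested genes. *Chst12*, a chondroitin 4-O-sulfotransferase, had 10.4, 15.6 and 13.3 CPM in KO and 3.64, 4.42 and 5.28 CPM in WT (log2 fold change 1.56, edgeR adjusted p = 0.00507). *Csgalnact1*, which starts chondroitin chains, had 39.3, 37.4 and 33.9 CPM in KO and 15.0, 21.4 and 20.4 CPM in WT (0.96, adjusted p = 0.00838). Both passed with every library left out. *B3gat3* fell (−0.99, adjusted p = 0.0468) and *B3galt6* rose (0.89, adjusted p = 0.0226), and both enzymes build the linker between protein and chain. *B3galt6* did not pass without KO3 (adjusted p = 0.0569), WT1 (0.102), WT2 (0.0516) or WT3 (0.0671). *B3gat3* did not pass without KO2 (0.0973), KO3 (0.0728), WT1 (0.150), WT2 (0.0671) or WT3 (0.119). The count in this list was 2 without KO3, WT1 or WT3 and 3 without WT2.

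Of 22 receptors of these proteins, 20 were tested, with a median of 0.54. Among them 8 rose and 1 fell, beside 12.1% and 10.6% of all tested genes. *Sdc1*, syndecan-1, had 380, 329 and 395 CPM in KO and 115, 116 and 111 CPM in WT (log2 fold change 1.69, standard error 0.13, edgeR adjusted p = 0.000640). *Itgb3* (1.62, adjusted p = 0.00644) and *Itga3* (1.50, adjusted p = 0.00635), an integrin beta and an integrin alpha chain, also rose. *Itga4*, an integrin alpha chain that pairs with beta-1 and binds fibronectin, had 2, 0 and 1 counts in KO and 115, 154 and 133 in WT (adjusted p = 0.000812). Against a limit of 3 counts per KO library it was at least 51.4-fold lower. These 4 receptors passed with every library left out. *Cd47*, a receptor of thrombospondin-1, had a log2 fold change of −0.12 (adjusted p = 0.661), and *Cd36*, another, was at most 15.7 CPM in any library and did not pass (−1.94, adjusted p = 0.125). The integrin chains of the main fibronectin receptor, *Itga5* (−0.25, adjusted p = 0.419) and *Itgb1* (−0.21, adjusted p = 0.544), did not pass either. The count in this list was 5 without WT1 or WT3, and 15 without KO1.

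Of 26 matrix proteases and assembly factors, 23 were tested, with a median of 0.73. Among them 9 rose and 2 fell, beside 12.1% and 10.6% of all tested genes. *Adamts5*, a protease of proteoglycan core proteins, fell from 93.8, 129 and 88.7 CPM in WT to 15.3, 20.8 and 29.8 CPM in KO (log2 fold change −2.24, standard error 0.27, edgeR adjusted p = 0.00254). *Mmp11*, a matrix metalloproteinase, also fell (−1.47, adjusted p = 0.00848), and both passed with every library left out. *Fbln2* (1.37, adjusted p = 0.0145) and *Fbln1* (1.35, adjusted p = 0.0323), fibulins that bind fibronectin, rose. *Fbln2* did not pass without WT1 (adjusted p = 0.0789) or WT3 (0.0707), and *Fbln1* without KO3 (0.0630), WT1 (0.128), WT2 (0.0762) or WT3 (0.0982). The count in this list was 4 without WT1 and 5 without WT3.

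Of 21 genes widely used as TGF-beta responsive in mesenchymal cells, 20 were tested, with a median of 0.37. Among them 5 rose, beside 12.1% of all tested genes. *Scx*, a tendon transcription factor, rose from 44.3, 43.4 and 42.1 CPM in WT to 120, 116 and 79.9 CPM in KO (log2 fold change 1.28, edgeR adjusted p = 0.00347) and passed with every library left out, while the tendon genes *Tnmd*, *Thbs4* and *Kera* had at most 3 counts in every library. *Pmepa1*, an inhibitor of TGF-beta signalling (1.11, adjusted p = 0.0468), and *Tgfbr2*, a TGF-beta receptor (0.94, adjusted p = 0.0240), rose. *Tgfbr2* did not pass without KO3 (0.0555), WT1 (0.107) or WT3 (0.0947), and *Pmepa1* passed without KO2 but with no other single library left out. The number that rose in this list was 2 without WT2 and 1 without KO3, WT1 or WT3.

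**Figure D4:**
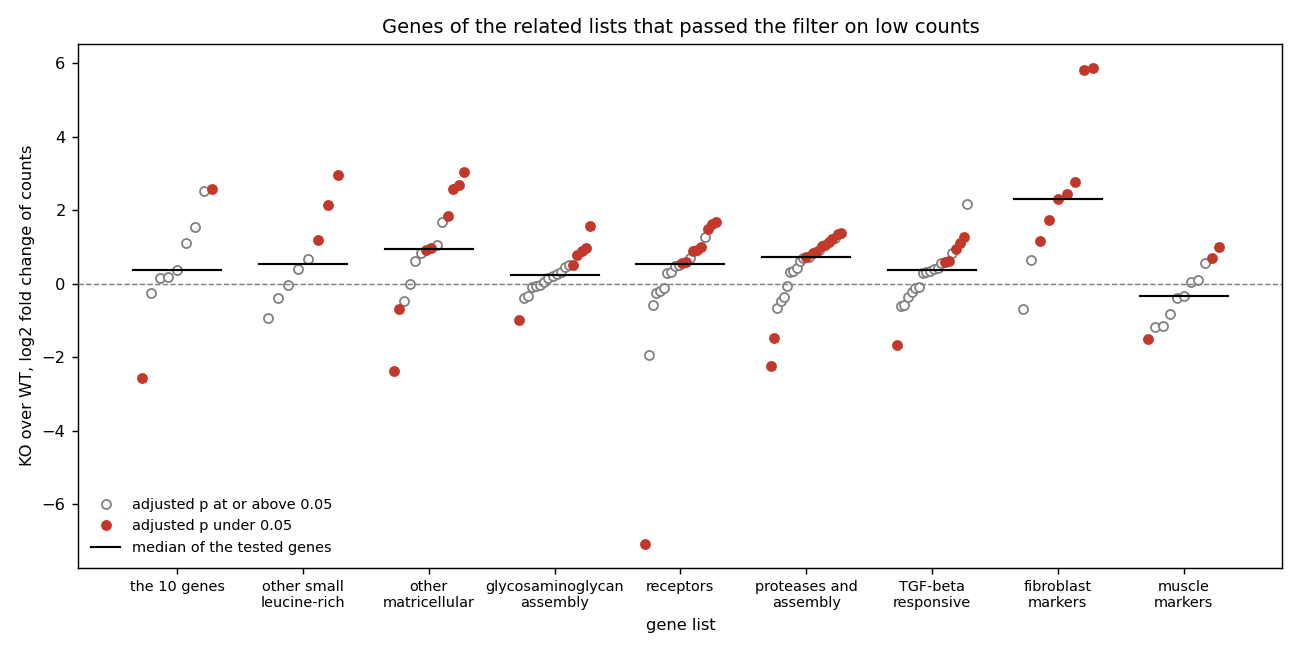
Log2 fold change of KO over WT in counts for each tested gene of the 10 and of the related lists, ordered within a list, with filled red points for an adjusted p under 0.05 (edgeR) and a black line at the median. The 10 genes reach from −2.57 (*Postn*) to 2.58 (*Thbs1*) around a median of 0.38, and the point at −7.08 is *Itga4*, whose KO libraries had at most 2 counts, so that its fitted value is not a measured fold.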

How the data were processed

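Differentiated C2C12 cells, 3 KO and 3 WT cultures, gave total RNA that was depleted of rRNA and sequenced. Per the labels, the authors trimmed reads with Trim Galore, aligned them with STAR and counted them on genes with featureCounts, and the deposited counts were used as they stood. The deposited TPM values were made by the authors with StringTie and correct for transcript length. Versions and the use of strand are not given in the sources used here; *Thbs1*, *Tnc* and *Fn1* each overlap a gene on the opposite strand with at most 3, 43 and 14 counts in any library. The methods name GRCm39 and the labels another build, but 93.3% of 45100 shared genes fit GENCODE M21 on GRCm38 within 1000 bases at both ends, so GRCm38 positions are given.

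Counts of all 46078 genes were scaled with TMM (factors 0.949 to 1.08), filtered with filterByExpr and tested two-sided with edgeR 4.0.16 (glmQLFTest, genotype alone, R 4.3.3), with Benjamini-Hochberg adjustment over the 14828 genes tested and a threshold of 0.05. Genes that reached a TPM of 1 in 3 or more libraries were tested as log2(TPM + 1) with limma 3.58.1 over 11691 genes; fold changes on this scale understate low genes. DESeq2 1.42.0, other scalings, filters and pseudocounts, and each library left out were alternatives. Libraries of the same genotype differed by a chi-square per degree of freedom of 46.6 to 171, so that the spread was above counting noise and no library repeated another. In data simulated for this comparison with 200 genes changed by 2 on the log2 scale, the edgeR test found 91.5% of them and called 14 unchanged genes among 14551 tested. The changed genes were drawn above a floor on mean counts, and each gene had the same dispersion in both genotypes. The larger spread within KO was therefore not simulated, and the share found does not describe genes with such a spread.

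The 10 genes, the related lists and the markers were chosen with earlier results of these data known. In each list, genes past the threshold were named, up to the 4 with the largest log2 fold change in either direction, and for 3 of the 10 genes with the largest fold change the 3 nearest profiles among genes whose mean log2 CPM reached 3 were named. One gene of the TGF-beta list is not reported here.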

Additional observations from a re-analysis of the deposited data

How the results depend on the processing

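*Thbs1* kept its direction in 13 of 13 alternatives in counts and 9 of 9 in TPM, and passed in each of them that has a test. The subtraction of the median of tested genes within 5 Mb (2.53) has none. *Thbs1* had log2 fold changes in counts between 2.25 and 2.83 with a library left out and 2.10 to 2.79 in TPM. *Postn* kept its direction throughout, from −3.06 to −2.05 in counts and from −2.73 to −1.59 in TPM with a library left out, but did not pass in TPM without a filter (−2.33, adjusted p = 0.128, limma). The number of the 10 genes past the threshold was 6 without a filter on low counts, where 4538 of all 30252 genes tested passed. The genes added were *Dcn* (1.52), *Fmod* (2.48), *Fn1* (1.09) and *Lum* (2.37). In TPM without a filter the number was 1, where 1075 of all 27302 genes tested passed. With a library left out it was 1 to 4 in counts and 1 to 3 in TPM. In the same fits the calls over all genes ranged from 933 to 4712 in counts and from 484 to 3156 in TPM. Signs reversed only with a library left out. In counts, this was *Dcn* (−0.68), *Sparc* (−0.05) and *Tnc* (0.04) without KO1, *Tnc* (0.09) without KO2, *Thbs2* (−0.26) without KO3 and *Tnc* (0.40) without WT2. In TPM, it was *Dcn* (−0.40) without KO1, *Tnc* (0.02) without KO2, *Thbs2* (−0.32) without KO3, *Thbs2* (−0.03) without WT1 and *Tnc* (0.15) without WT2. The ranges with a library left out were −0.68 to 2.02 for *Dcn*, −0.26 to 0.49 for *Thbs2*, −0.05 to 0.31 for *Sparc* and −1.15 to 0.40 for *Tnc* in counts, and −0.40 to 1.15 for *Dcn*, −0.32 to 0.47 for *Thbs2* and −1.06 to 0.15 for *Tnc* in TPM. With a library left out, the numbers past the threshold were 3 to 3 for the other small leucine-rich genes, 1 to 8 for the other matricellular genes, 2 to 6 for chain assembly, 5 to 15 for receptors, 4 to 14 for proteases and assembly and 1 to 8 for the TGF-beta list. Fewer libraries were fitted in each of these, and no further cause was tested. Scaling by library totals alone moved the median log2 fold change of all genes from 0.03 to 0.15. The replicate numbers of the labels did not pair the samples, since the deviations of same-numbered KO and WT libraries correlated at 0.137, −0.116 and 0.00413 and KO2 and KO3 correlated best with another number. With replicate number as a block, *Postn* had −2.87 (adjusted p = 0.0749, edgeR), 1 of the 10 genes passed, and the calls over all genes went from 3361 to 2520. *Lum* had at most 11 counts outside KO1, which leaves a wide counting error.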
